A study of Homo sapiens with 4 samples.

Results

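The MYC and MAX network is a group of basic helix-loop-helix leucine zipper transcription factors that share the partner MAX. The genes described here are the 3 MYC paralogs (MYC, MYCN and MYCL), MAX itself, the MXD repressors MXD1, MXD3, MXD4 and MXI1, and the large MAX partners MNT and MGA. They were taken by symbol, and all 10 were found among the 23444 gene entries of the deposited tables. The RNA came from U87-MG, a long-established line grown from a human glioblastoma, and formed 2 groups. The 2 shMAGED2 libraries came from cells in which MAGED2, an X-linked member of the melanoma antigen family, was knocked down by a short hairpin RNA, and the 2 shCON libraries came from cells with a scrambled control hairpin. All 4 libraries are from the same line, and the labels do not say whether the replicates were separate cultures, so the spread behind each p-value may be no more than technical. The labels differ on the model: the series text describes a stable MAGED2 knockdown, whereas the treatment text gives ZDHHC15 as the hairpin target, with cells transfected transiently and collected at 36 h. The labels name no hairpin sequence and do not say whether more than 1 hairpin was used.

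As background, MYC and its paralogs dimerise with MAX on E-box DNA and raise transcription of genes for growth, ribosome production and metabolism. MXD proteins and MNT compete for MAX, bind the same E-boxes and recruit the SIN3 corepressor with its histone deacetylases, and most MXD genes are known for rising as cells leave the cycle and differentiate. MGA joins MAX to a repressive Polycomb complex, PRC1.6. A parallel arm uses MLX in place of MAX, with the glucose-responsive factors MLXIP (MondoA) and MLXIPL (ChREBP) as activators, and MNT, MXD1 and MXD4 can also pair with MLX.

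Total counts were 28673774 to 36234336 per library. MAGED2 had 526 and 795 counts in shMAGED2 against 6090 and 5225 in shCON, and it fell to 11.2% of shCON (log2 change −3.16, SE 0.13; quasi-likelihood test in edgeR, adjusted p = 0.000654 by Benjamini-Hochberg), while ZDHHC15 had 0 counts in all 4 libraries. The shMAGED2 libraries differed more from each other (chi-square per degree of freedom 89.5) than the shCON libraries did (7.42). Mitochondrially encoded transcripts took 10.1% of the counts in shMAGED2 replicate 1 and 4.87% in replicate 2, against 3.92% and 3.90% in shCON. Of the glioma and astrocyte markers, VIM, CD44 and EGFR were abundant, whereas AQP4 and ALDH1L1 had 0 counts in every library, SOX2 had at most 4 and GFAP had 28 to 89. Among the 7 of these 11 markers that were tested, NES, a neural progenitor filament, rose (log2 change 1.88, SE 0.18; edgeR, Benjamini-Hochberg adjusted p = 0.0020) and OLIG2, an oligodendrocyte lineage factor, fell (−1.45, SE 0.27; adjusted p = 0.0158). Summed levels of markers of other cell types were low: over 5 neuronal markers 18.7 and 17.0 CPM in shMAGED2 against 14.4 and 10.9 in shCON, and at most 8.37 CPM in any library over the immune, endothelial or epithelial markers, with STMN2, CDH1, KRT5 and KRT14 at 0. CPM here are counts relative to the TMM-scaled library total. With mitochondrially encoded genes removed from all libraries, the log2 changes were 1.29 for MYC, 1.22 for MXD3 and −1.54 for MYCL. They were −1.03 for MXD1, −0.59 for MXD4 and −0.76 for MXI1. Values without shMAGED2 replicate 1, given below, leave out that library as a whole and not its mitochondrial share alone. Beyond this, the part of the mitochondrial share and of these markers in the results on the network was not tested.

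MYC was higher and 3 of the 4 MXD repressors were lower in shMAGED2 cells, whereas MXD3 rose together with MYC. The transcripts of MAX, MNT and MGA did not pass the test. Of the 10 genes, 9 had enough counts to be tested: MYC and MXD3 rose, MYCL, MXD1, MXD4 and MXI1 fell, and 3 were not called. Thus 6 of 9 passed the threshold of an adjusted p under 0.05, where 23.9% of all 15293 tested genes did (12.3% higher and 11.6% lower). The median log2 change was −0.17 over the 9 genes and 0.00 over all tested genes. These are values for a short list named by hand, and nothing particular to it follows from the counts.

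**Figure D1:**
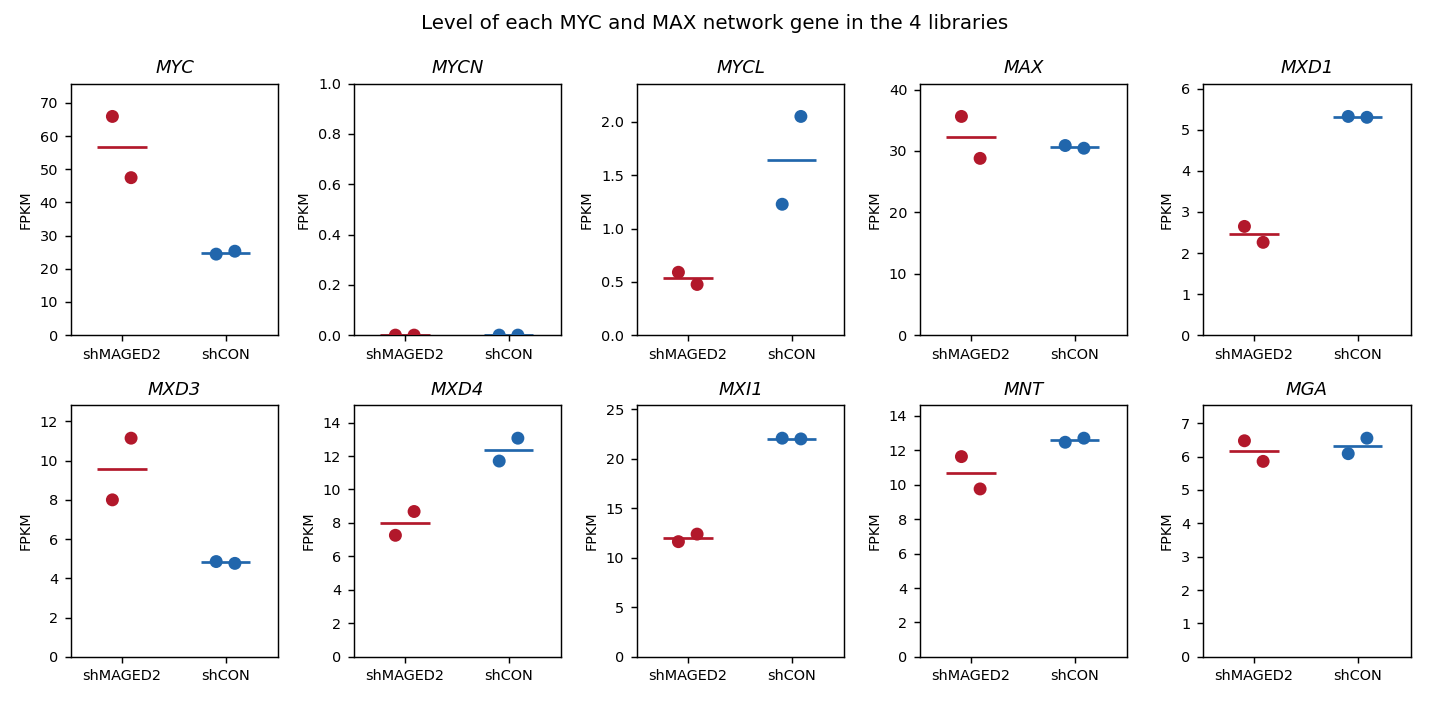
FPKM (fragment counts per gene length and library size, as deposited) of each gene, with a linear axis from 0; points are the 4 libraries, shMAGED2 left and shCON right, and lines are group means. MYC and MXD3 are higher in both shMAGED2 libraries, MYCL, MXD1, MXD4, MXI1 and MNT are lower in both, and MYCN is at 0 throughout. MNT did not pass the test, and groups were apart in FPKM for 55.8% of all genes with a value above 0.

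MYC (ENSG00000136997, plus strand of chromosome 8, 127735434 to 127741434 in hg38) drives the activating side of the network. It had 4788 and 4027 counts in shMAGED2 replicates 1 and 2, against 1924 and 1646 in shCON. Both shMAGED2 libraries lay above both shCON libraries, and the ratio between single libraries ran from 1.95 to 2.95 in CPM. MYC rose 2.45-fold (log2 change 1.29, SE 0.19; edgeR, Benjamini-Hochberg adjusted p = 0.0076). Of the 15293 tested genes, 686 had a larger rise. By FPKM, MYC stood at 65.9 and 47.5 in shMAGED2 and 24.4 and 25.3 in shCON, so that 1112 genes had a higher mean FPKM in shMAGED2 and 2929 in shCON. The higher of the shMAGED2 values belonged to replicate 1, the library with the larger mitochondrial share. Without that library the log2 change was 0.98, and with mitochondrially encoded genes removed from all libraries it was 1.29.

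The MYC paralogs did not follow MYC. MYCN, known for its amplification in neuroblastoma, had no count in any of the 4 libraries (0 in each). A count of 0 leaves room for up to 0.096 and 0.083 CPM in shMAGED2 and 0.088 and 0.105 CPM in shCON (3 counts of each library, counting error only). It was therefore not tested, and this depth could not have shown a change below those levels. MYCL (minus strand of chromosome 1, 39895426 to 39902256), first described in lung cancer, had 54 and 52 counts in shMAGED2 against 120 and 177 in shCON. It was the lowest of the detected members at 0.59 and 0.48 FPKM in shMAGED2 and 1.23 and 2.05 FPKM in shCON, and the groups did not overlap. MYCL fell to 34.3% of shCON (log2 change −1.54, SE 0.38; edgeR, Benjamini-Hochberg adjusted p = 0.0345). Without shCON replicate 2, the library with 177 counts, its change was −1.08. The call was lost in that fit, which leaves 1 shCON library and in which fewer of all tested genes passed.

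The MXD repressors that fell did so to different extents. MXD1 (plus strand of chromosome 2, 69897688 to 69942945), the founding member, induced when myeloid and epithelial cells differentiate, had 479 and 475 counts in shMAGED2 and 1049 and 872 in shCON. It fell to 48.8% of shCON (log2 change −1.04, SE 0.16; edgeR, Benjamini-Hochberg adjusted p = 0.00852), and its ratios between single libraries were 0.43 to 0.55. MXI1 (plus strand of chromosome 10, 110207605 to 110287365), also known as MAD2, had 1037 and 1310 counts in shMAGED2 against 2085 and 1787 in shCON. In CPM this was 35.2 and 35.7 against 59.8 and 60.9, with no overlap between the groups, and MXI1 fell to 58.7% of shCON (log2 change −0.77, SE 0.10; edgeR, adjusted p = 0.00592). MXD4 (minus strand of chromosome 4, 2247432 to 2262294), known from mouse as Mad4, had 788 and 1252 counts in shMAGED2 and 1522 and 1424 in shCON. In CPM these were 26.8 and 34.1 against 43.6 and 48.6, which do not overlap, and MXD4 fell to 66.1% of shCON with the weakest call of the 4 (log2 change −0.60, SE 0.16; edgeR, adjusted p = 0.0406). Without shCON replicate 1 the log2 changes were −1.03 for MXD1, −0.78 for MXI1 and −0.68 for MXD4. Without shCON replicate 2 they were −1.04, −0.75 and −0.52. The calls of MXI1 and MXD4 were lost in both fits, and that of MXD1 without shCON replicate 1. Each of these fits leaves 1 shCON library, and fewer of all tested genes passed in them. The lost calls are therefore not particular to these genes.

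MXD3 went the other way. Its mouse homologue, Mad3, is known for being made in S phase by cells that are still dividing, unlike the other MXD genes. MXD3 (minus strand of chromosome 5, 177301461 to 177312757) had 454 and 767 counts in shMAGED2, against 282 and 222 in shCON. This was 8.00 and 11.1 FPKM against 4.86 and 4.76, with the higher value in shMAGED2 replicate 2, the library with the lower MYC level. MXD3 rose 2.32-fold (log2 change 1.21, SE 0.20; edgeR, Benjamini-Hochberg adjusted p = 0.0113), and 767 genes had a larger rise. Its exons share 926 bases with RAB24 on the same strand and 1158 bases with PRELID1 on the opposite strand, and how such shared reads were counted is not stated in the labels. RAB24, a small GTPase, fell (log2 change −0.70, SE 0.13; edgeR, adjusted p = 0.0146), and PRELID1, a mitochondrial lipid transfer factor, rose (0.61, SE 0.09; adjusted p = 0.00809). Mean levels over all libraries were 24.4 CPM for RAB24 and 144 CPM for PRELID1. MXD3 had group means of 18.2 CPM in shMAGED2 and 7.83 CPM in shCON. The part of shared reads in the rise of MXD3 was not tested.

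**Figure D2:**
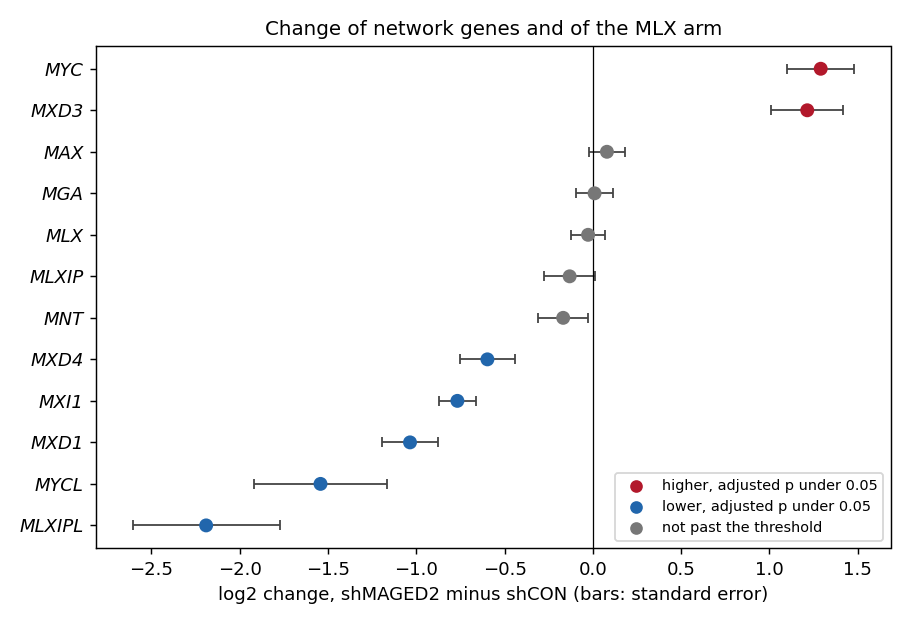
The log2 change of the 9 tested members and of the 3 genes of the MLX arm (horizontal axis, shMAGED2 minus shCON; bars are standard errors from the edgeR fit), ordered by size. MYC (1.29) and MXD3 (1.21) lie to the right of 0, MAX, MGA, MLX, MLXIP and MNT have values between −0.17 and 0.08, and MXD4, MXI1, MXD1, MYCL and MLXIPL lie to the left.

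The regulatory windows of the MXD genes are shown because this family moved in both directions. They are RefSeq sequences on GRCh38.p14, 300 bases long and spanning the annotated start, each read 5′ to 3′ on the strand of its gene, with the E-box CACGTG in capitals. The bases just after the start matched a GENCODE transcript of the gene for MXD1, MXD4 and MXI1, but not for MXD3. The windows are chr2:69914859-69915158 on the plus strand for MXD1, chr4:2262060-2262359 on the minus strand for MXD4, chr10:110207355-110207654 on the plus strand for the first of 3 MXI1 starts, and chr5:177312703-177313002 on the minus strand for MXD3.
MXD1: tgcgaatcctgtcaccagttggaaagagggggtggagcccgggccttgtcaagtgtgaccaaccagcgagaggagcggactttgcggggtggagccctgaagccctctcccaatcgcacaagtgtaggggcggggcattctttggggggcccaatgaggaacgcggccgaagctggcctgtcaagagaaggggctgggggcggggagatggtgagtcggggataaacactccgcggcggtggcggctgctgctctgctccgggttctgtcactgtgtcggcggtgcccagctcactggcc
MXD4: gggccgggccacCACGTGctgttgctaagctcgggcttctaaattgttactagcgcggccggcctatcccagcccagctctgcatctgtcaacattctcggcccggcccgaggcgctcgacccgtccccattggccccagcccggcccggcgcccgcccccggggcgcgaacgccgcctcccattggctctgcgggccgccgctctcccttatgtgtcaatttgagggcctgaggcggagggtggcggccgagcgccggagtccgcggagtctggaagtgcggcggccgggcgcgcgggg
MXI1: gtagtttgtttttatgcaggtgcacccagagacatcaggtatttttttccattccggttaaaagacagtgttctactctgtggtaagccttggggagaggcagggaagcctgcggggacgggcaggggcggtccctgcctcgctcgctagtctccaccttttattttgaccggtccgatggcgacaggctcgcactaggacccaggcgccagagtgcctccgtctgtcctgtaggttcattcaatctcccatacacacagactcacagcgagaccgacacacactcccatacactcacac
MXD3: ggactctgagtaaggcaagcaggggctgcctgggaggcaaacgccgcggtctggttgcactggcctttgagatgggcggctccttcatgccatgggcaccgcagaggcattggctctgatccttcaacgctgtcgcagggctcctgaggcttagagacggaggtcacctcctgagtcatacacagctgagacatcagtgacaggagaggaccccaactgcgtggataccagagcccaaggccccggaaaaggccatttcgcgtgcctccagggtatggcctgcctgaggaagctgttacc
The palindromic E-box CACGTG occurred in the MXD4 window, 238 bases before the start, and in that of MNT, 193 bases before the start. It was in none of the windows found for MYCN, MYCL, MAX, MXD1, MXD3, MXI1 and MGA, and in 7.26% of 35116 windows of the same length. Matches to the E2F sequences TTTCCCGC, TTTGGCGC and TTTCGCGC on either strand, held by 2.74% of all windows, overlapped each other in the MYCN window and occurred at 1 of 3 MGA starts. The amino acid response sequence TGATGNAA, held by 3.62% of all windows on either strand, was in none of the windows found for the 9 members other than MYC. Such matches describe letters in a short window and say nothing of binding in these cells.

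The shared partner and the large MAX partners had small differences. MAX (minus strand of chromosome 14, 65006174 to 65102695) encodes the partner that MYC and MXD proteins share. It had 2044 and 2322 counts in shMAGED2 against 2198 and 1833 in shCON. Its log2 change was 0.08 (SE 0.10; 95% interval −0.18 to 0.33; edgeR, Benjamini-Hochberg adjusted p = 0.622). Its CPM values did not overlap between the groups, at 69.4 and 63.2 against 63.0 and 62.5, which held for 66.0% of all tested genes, whereas its FPKM values overlapped, at 35.6 and 28.8 against 30.9 and 30.4 (groups were apart in FPKM for 55.8% of all genes with a value above 0). The length implied by the ratio of counts to FPKM was 1.84 and 2.23 kb in shMAGED2 and 2.08 and 2.10 kb in shCON for MAX. This gene has 19 annotated transcripts. The implied length also varied for MXD3, at 1.82 and 1.90 kb in shMAGED2 and 1.70 and 1.63 kb in shCON. For MXD4 it was 3.48 and 3.98 kb against 3.80 and 3.80 kb. The cause of these differences between the units was not tested. MNT (minus strand of chromosome 17, 2384060 to 2401118), a repressor present in dividing and resting cells alike, had 1879 and 1834 counts in shMAGED2 and 2215 and 1885 in shCON, with a log2 change of −0.17 (SE 0.14; 95% interval −0.51 to 0.18; adjusted p = 0.433). The FPKM values of MNT were lower in both shMAGED2 libraries, at 11.6 and 9.76 against 12.5 and 12.7 in shCON, whereas its CPM values overlapped. Replicate 2 of shMAGED2 was the lower, at 49.9 CPM against 63.8 in replicate 1, and without replicate 1 the log2 change of MNT was −0.35. MGA (plus strand of chromosome 15, 41621224 to 41773081) had 2430 and 2724 counts in shMAGED2 and 2687 and 2306 in shCON, with overlapping groups and a log2 change of 0.01 (SE 0.10; 95% interval −0.24 to 0.26; edgeR, adjusted p = 0.958). Intervals that include 0 do not show that these levels were the same.

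The genes also differed in how far the 2 shMAGED2 libraries lay apart. In replicates 1 and 2 of shMAGED2, MYC had 163 and 110 CPM, MNT 63.8 and 49.9 and MXD1 16.3 and 12.9, so that replicate 1 was the higher. MXD3, with 15.4 and 20.9 CPM, and MXD4, with 26.8 and 34.1, were higher in replicate 2, and MXI1 was close in both. In shCON the replicates were closer for these 6 genes, with 55.1 and 56.1 CPM for MYC, 63.5 and 64.3 for MNT, 30.1 and 29.7 for MXD1, 8.08 and 7.57 for MXD3 and 43.6 and 48.6 for MXD4, with the exception of MXI1 (59.8 and 60.9 CPM in shCON, 35.2 and 35.7 in shMAGED2). MYCL also had the wider gap in shCON, at 3.44 and 6.04 CPM, against 1.83 and 1.42 in shMAGED2. Without shMAGED2 replicate 2 the log2 changes of MYC, MXD3 and MXD4 were 1.55, 0.98 and −0.79. Without shMAGED2 replicate 1 they were 0.98, 1.42 and −0.43. In these fits the spread within groups comes from the shCON pair alone, so calls in them are not given here.

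The annotation adds a limit on several of these values. MYC shares no exon base with another annotated gene. Exons of MYCL, MAX, MXI1, MNT and MGA each overlap 1 non-coding gene on the opposite strand, by 184 to 1065 bases, and MYCN overlaps its antisense gene MYCNOS by 98 bases. Without a stated strand setting, reads of such pairs cannot be told apart. MXD1 shares 237 bases with SNRNP27, a splicing factor gene on the same strand, which had a log2 change of 0.21 (SE 0.14; edgeR, Benjamini-Hochberg adjusted p = 0.326).

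Set side by side on the FPKM scale, the order of the genes differed between the groups. In shMAGED2 MYC was highest at 56.7 ± 13.1 FPKM, followed by MAX at 32.2 ± 4.8, and in shCON MAX was highest at 30.7 ± 0.3, followed by MYC at 24.9 ± 0.6 (SD, n = 2 each). MXI1 came next in both groups, at 12.0 ± 0.5 FPKM in shMAGED2 and 22.04 ± 0.05 in shCON. Among neighbours in the order, the values of MXI1 and MNT, of MNT and MXD3, and of MXD3 and MXD4 overlapped in shMAGED2, and those of MNT and MXD4 in shCON. MXD3 was at rank 5 in shMAGED2, at 9.57 ± 2.22 FPKM, and at rank 8 in shCON, at 4.81 ± 0.07, while MXD1 was below MGA in both, at 2.45 ± 0.27 FPKM in shMAGED2 and 5.32 ± 0.02 in shCON. MYCL and MYCN were the lowest in both groups.

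As shares of the summed FPKM of all 10 genes, MYC took 44.0% and 37.4% in shMAGED2 against 20.5% and 20.7% in shCON. MXD1, MXD4 and MXI1 together took 14.4% and 18.4% in shMAGED2 and 32.85% and 33.04% in shCON. The 4 MXD genes had summed levels of 29.5 and 34.5 FPKM in shMAGED2 against 44.0 and 45.1 in shCON. Relative to the MYC family, this was a ratio of 0.44 and 0.72 in shMAGED2, against 1.71 and 1.65 in shCON, so that MYC family transcripts exceeded MXD transcripts in both shMAGED2 libraries and were below them in both shCON libraries. Within the MXD family MXD3 made up 27.1% and 32.3% of the summed FPKM in shMAGED2 and 11.0% and 10.6% in shCON. The ratio of MYC to MAX was 1.85 and 1.65 in shMAGED2 and 0.79 and 0.83 in shCON. For each of these ratios and shares the groups did not overlap, and the exact permutation test over 2 against 2 libraries gave p = 0.333, the smallest two-sided value it allows. Transcript levels are not protein levels, and no protein was measured in the files used here.

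**Figure D3:**
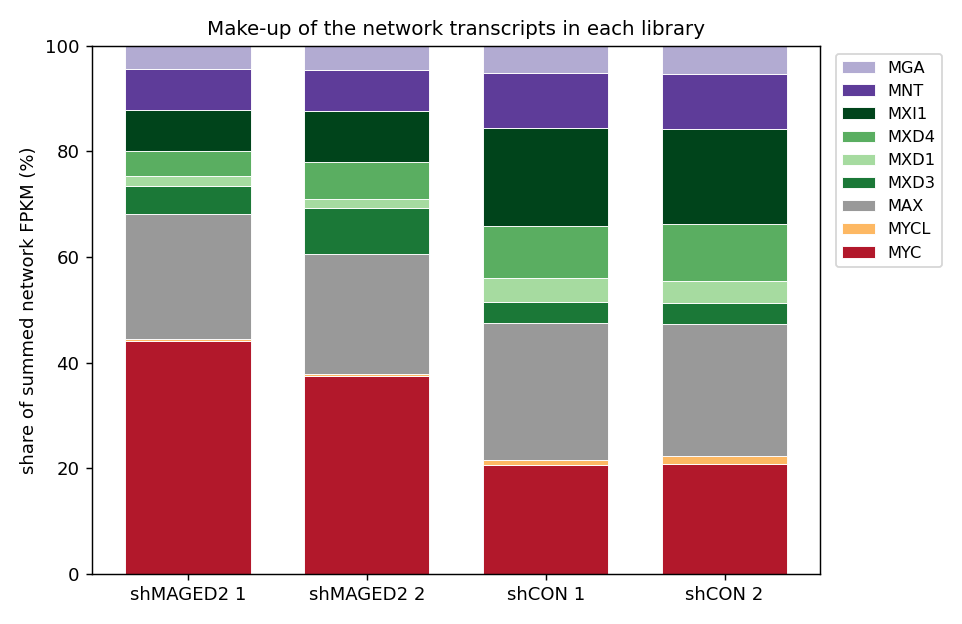
Share of each gene in the summed FPKM of the network (vertical axis, percent) in each library, with MYCN absent because it was at 0. MYC takes 44.0% and 37.4% in the shMAGED2 libraries against 20.5% and 20.7% in the shCON libraries, and MXI1, MXD4 and MXD1 are narrower in shMAGED2.

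In the MLX arm 0 of 3 genes rose and 1 fell, where 12.3% and 11.6% of all genes did. MLX had a log2 change of −0.03 (SE 0.10) and MLXIP, encoding MondoA, of −0.13 (SE 0.14), and neither passed the test. MLXIPL, encoding ChREBP, fell to 31 and 21 counts in shMAGED2, against 143 and 96 in shCON (log2 change −2.19, SE 0.42; edgeR, Benjamini-Hochberg adjusted p = 0.0163). This call was lost without shCON replicate 1, in a fit that leaves 1 shCON library and in which fewer of all tested genes passed. Both MondoA-responsive arrestins rose, TXNIP to 230 and 265 CPM in shMAGED2 against 34.5 and 35.9 in shCON, and ARRDC4 to 65.9 and 63.6 CPM against 16.1 and 16.4.

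Lists of genes for proteins that work with the network were counted against the 12.3% of all genes that rose and the 11.6% that fell. Of 13 components of the PRC1.6 complex around MGA, 2 rose (15.4%) and 0 fell: TFDP1, the dimerisation partner of E2F factors (log2 change 0.96, SE 0.09), and CBX1, a heterochromatin protein (0.78, SE 0.11), with a median of 0.04 for the list. Of 16 genes of the SIN3 corepressor that MXD proteins recruit, 1 rose (6.25%), SAP30 (0.85, SE 0.16), and 0 fell, with a median of 0.02. Without shMAGED2 replicate 1 more genes of both lists rose and fell, and so did more of all tested genes. That fit leaves 1 shMAGED2 library, so its calls cannot be set against the shares given here. Of 17 MYC cofactors, 4 rose and 0 fell (23.5% against 12.3% of all genes, median 0.31): the ATPases RUVBL2 (0.87, SE 0.14) and RUVBL1 (0.54, SE 0.10), the host cell factor HCFC1 (0.95, SE 0.19) and the elongation kinase CDK9 (0.34, SE 0.10; edgeR, adjusted p = 0.04997, next to the threshold). Fewer cofactors rose without either shCON library and more without either shMAGED2 library, as was the case over all tested genes. MYCBP, a MYC-binding protein, rose to 15.9 and 16.0 CPM in shMAGED2 against 8.37 and 8.56 in shCON (log2 change 0.91, SE 0.16; edgeR, Benjamini-Hochberg adjusted p = 0.0124). This call was lost without either shCON library, in fits that leave 1 shCON library and in which fewer of all tested genes passed.

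Of 22 genes that set the stability of MYC protein, 5 rose and 2 fell (22.7% and 9.09%, against 12.3% and 11.6% of all genes; median 0.16). The kinases PLK1 (log2 change 2.00, SE 0.13) and AURKA (1.72, SE 0.10), which stabilise MYC proteins and are also mitotic kinases, CIP2A (1.38, SE 0.12), an inhibitor of the phosphatase that destabilises MYC, and SKP2 (0.79, SE 0.13), a subunit of a ubiquitin ligase, rose, as did TRIM32 (0.41, SE 0.10), named after its value was seen. FBXO32, a muscle atrophy ubiquitin ligase subunit (−0.93, SE 0.09), and PPP2R5A, a regulatory subunit of that phosphatase (−0.53, SE 0.12), fell. The turnover factors FBXW7 (−0.21) and HUWE1 (0.19) and the kinase GSK3B (−0.12) did not pass the test (chosen after their values were seen). Fewer of the 22 rose without either shCON library and more without either shMAGED2 library, as was the case over all tested genes.

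Of 37 tested genes known to be induced by MYC, 20 rose and 2 fell. This is 54.1% and 5.41%, against 12.3% and 11.6% of all genes. The median log2 change of the list was 0.47, against 0.00 over all tested genes. The list was chosen with earlier results of these data known, so these shares are no test of MYC activity. FBL, a nucleolar methyltransferase, rose to 124 and 122 CPM in shMAGED2, against 63.8 and 63.2 in shCON (log2 change 0.96, SE 0.09). LDHA, which makes lactate, rose by 1.00 (SE 0.10), the ribosome assembly factor BOP1 by 0.94 (SE 0.12) and ODC1, the first enzyme of polyamine synthesis, by 0.65 (SE 0.09) on the log2 scale. SHMT2, a mitochondrial enzyme of serine use (−0.54, SE 0.11), and BCAT1, which transfers amino groups from branched amino acids (−0.60, SE 0.12), fell, and SHMT2 is also known as a target of the stress factor ATF4. TERT, the telomerase catalytic subunit, had 31 and 66 counts in shMAGED2 and 15 and 8 in shCON (log2 change 2.00, SE 0.59; edgeR, adjusted p = 0.0576) and was named after its value was seen. Fewer induced targets rose without either shCON library and more without shMAGED2 replicate 1, as was the case over all tested genes. Such a fit leaves 1 library in a group, so its calls cannot be set against the shares given here.

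Of 11 tested genes known to be repressed by MYC, 0 rose and 6 fell (54.5% against 11.6% of all genes), with a median log2 change of −0.77. This list was also chosen with earlier results of these data known, and its share is no test of MYC activity. DDIT3, which encodes CHOP and is also a main output of the unfolded protein response, fell to 23.0 and 42.6 CPM in shMAGED2, against 289 and 293 in shCON (log2 change −3.14, SE 0.29; edgeR, Benjamini-Hochberg adjusted p = 0.00173). The growth factor receptor PDGFRB (−1.12, SE 0.12), the ferritin heavy chain FTH1 (−0.85, SE 0.10) and the stress gene GADD45A (−0.77, SE 0.13) fell, as did COL1A2 and CDKN1A, a CDK inhibitor that p53 also drives (−0.91, SE 0.21 and −0.48, SE 0.09, named after their values were seen). CDKN1B had a log2 change of 0.00 and was not called, and CDKN2B and CDKN1C had 0 counts in all libraries. Without either shCON library fewer of these genes fell, as did fewer of all tested genes.

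**Figure D4:**
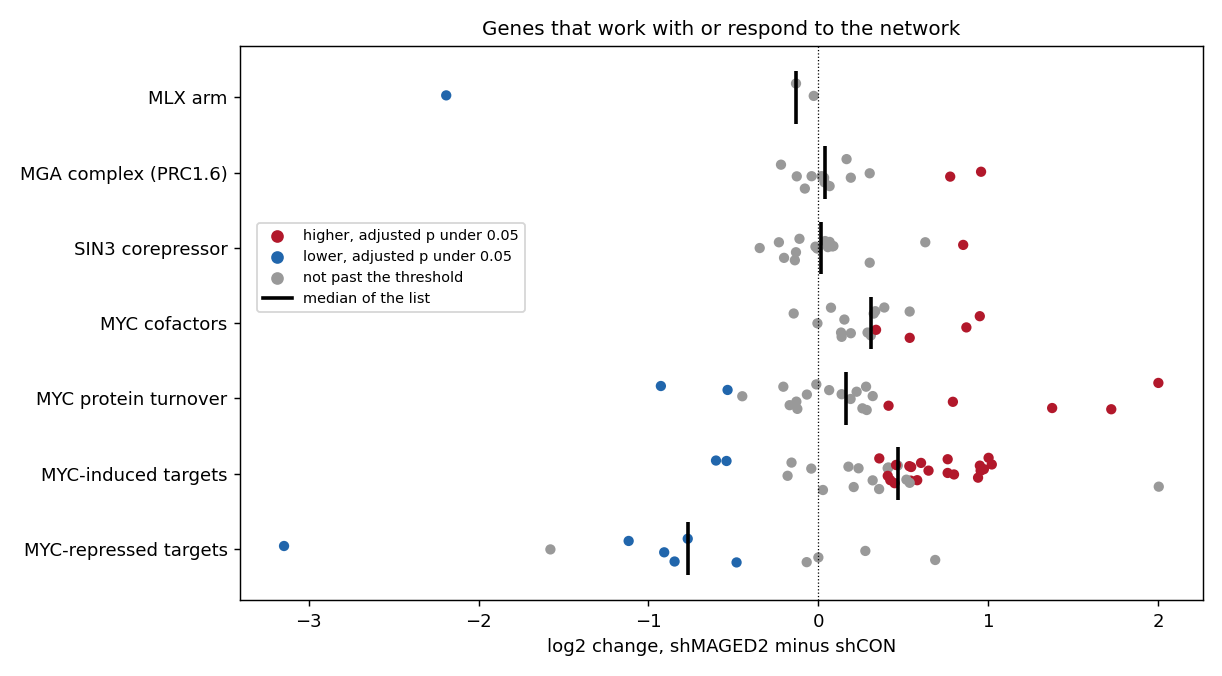
The log2 change (horizontal axis, shMAGED2 minus shCON) of each tested gene in 7 lists of genes that work with or respond to the network; points are genes, coloured by call, and black bars are list medians. The median is 0.47 for MYC-induced targets and −0.77 for MYC-repressed targets, against 0.04 and 0.02 for the PRC1.6 and SIN3 lists. The lists were chosen with earlier results of these data known.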

How the data were processed

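The counts, as deposited, are whole numbers of reads for each gene without normalisation, and the deposited FPKM table holds values that the authors scaled to gene length and library total. The submitters' processing notes name HISAT2, StringTie, SAMtools and hg38, with no role or version; for the annotation, the strand setting and the counting rules, nothing is stated in the labels or headers. Genes were filtered with filterByExpr, scaled by TMM and tested with edgeR 4.0.16 in R 4.3.3 (robust quasi-likelihood, two-sided, group as the only term, Benjamini-Hochberg adjustment over 15293 genes, threshold 0.05). The fit had 2 residual degrees of freedom. Standard errors come from the F statistic and the log2 change. Alternatives used DESeq2 1.42.0 and limma 3.58.1, with pseudocounts of 1 and 0.1 for FPKM. Coordinates are from GENCODE 29 on hg38, 1-based. The members and lists (157 symbols besides the members, 5 of 160 list entries without a match in the table) were chosen with earlier results of these data known. The text names all members, MAGED2, ZDHHC15, the MLX arm, up to 4 list genes per direction with the smallest p among those past the threshold, marker genes, genes that share exons with a member, and a few chosen after seeing their values, marked as such.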

Additional observations from a re-analysis of the deposited data

How the results depend on the processing

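Over 17 alternatives MYC kept its direction (log2 change 0.98 to 1.55), and the other members that had passed kept theirs. The call of MYC held in the fits with 2 libraries in each group. Calls were lost for MXD4 with library size alone (−0.65), for MYCL with limma-voom (−1.48), and on log2(FPKM + 1) without a filter for MYCL (−0.77), MXD3 (0.85) and MXD4 (−0.58), where 1 member rose and 2 fell, among 763 genes higher and 877 lower. On log2(FPKM + 0.1) 1244 genes were higher. Leaving out 1 library gave ranges of −1.90 to −1.08 for MYCL, −1.21 to −0.88 for MXD1, −0.79 to −0.43 for MXD4, −0.78 to −0.75 for MXI1, −0.354 to −0.0035 for MNT and −0.068 to 0.083 for MGA. It gave 1 to 5 members lower, 567 to 3725 genes higher and 533 to 3722 lower. MGA, which was not called, had the opposite sign with library size alone (−0.053), upper-quartile factors (−0.037), a filter of 5 CPM in 2 libraries (−0.010), log2(FPKM + 1) (−0.031, with or without a filter of 1 FPKM) and log2(FPKM + 0.1) (−0.036), and without shCON replicate 1 (−0.0080) or shMAGED2 replicate 1 (−0.068). The ratio of MXD to MYC family, lower in shMAGED2 by 1.10 in FPKM (difference −1.10), differed by −1.64 in CPM. Against 20 MYC-induced targets that rose, the count was 13 in each filtered FPKM fit and 7 without a filter, where 3 in place of 6 repressed targets fell and 0 in place of 4 cofactors rose. The cause of these shifts was not tested. MYCL reached 5 CPM in 1 library and so has no value under the filter of 2. The deviations of same-numbered libraries had a correlation of −0.02, which cannot show whether the replicates were paired. With a replicate block, 1706 genes were higher and 1630 lower, and 2 members rose and 4 fell. Counts of 52 to 177 limit the precision for MYCL.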
